A study of Mus musculus with 41 samples.

Results

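Lactylation of lysine 18 of histone H3 (H3K18la) was mapped by CUT&Tag, a method that brings a transposase by antibody to a histone post-translational modification and tags the DNA there, in 8 mouse cell types. The regions described here were selected on the H3K18la peak lists themselves. The 8 lists were merged on chromosomes 1 to 19, and a merged region was kept when it overlapped a peak of every list. This gave 808 common regions of 83127 merged regions.

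The 8 cell types were E14 embryonic stem cells in serum-lif (ESC-ser) or 2i-lif medium (ESC-2i), gastrocnemius muscle (GAS), primary myoblasts (MB), primary myotubes (MT), macrophages derived from bone marrow (BMDM), macrophages of post-ischemia muscle (PIM) and white adipocytes (ADIPO). E14 is a single established cell line. All other samples are labelled as of the C57BL/6 strain. The labels give DMEM as the medium of MB, MT and BMDM, which for MB was mixed with a second nutrient medium per the study's methods, and the muscle, PIM and fat samples came from adult female mice. PIM were sorted from calf muscle after hindlimb ischemia by surface proteins of macrophages, and ADIPO nuclei came from epididymal fat of AdipoCre-NuTRAP mice, in which Cre driven in adipocytes tags their nuclei, and were collected on beads. GAS is whole muscle and holds other cells besides muscle fibres. Whole cells were used for ESC-ser and ESC-2i and nuclei for the other 6, so this step and the stem cell type cannot be told apart. H3K18la was measured in 14 of the 41 samples, with 2 samples per cell type and 1 for MB and BMDM. Replicates were pooled into 1 peak list per cell type and mark, so no value of a single list has a replicate error. Peak lists of H3K27ac (5 cell types), H3K4me3 (4) and H3K27me3 (7) were compared with the regions.

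H3K18la is an acylation that uses lactate, the end product of glycolysis, as its source, and it was described as a mark of active genes. H3K4me3 marks promoters in use, H3K27ac marks active promoters and enhancers, and H3K27me3 is laid down by Polycomb complexes at silenced genes. A CpG island is a stretch of DNA that keeps a high density of the dinucleotide CG, and most broadly used promoters lie in one. A bulk peak list does not separate fewer cells with the mark from less of the mark per cell.

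In a check of the labels, H3K18la overlapped the promoters of Pou5f1, Nanog, Sox2 and Zfp42 in ESC-ser and ESC-2i and in none of the other 6 lists. All 4 muscle markers (Ckm, Acta1, Myog and Myod1) had a peak in GAS and MT, but only Myod1 had one in MB. All 4 macrophage markers (Adgre1, Spi1, Cd68 and Ptprc) had one in BMDM and PIM, and all 4 adipocyte markers (Adipoq, Plin1, Fabp4 and Cidec) in ADIPO. These were not exclusive: Adipoq and Fabp4 also had a peak in BMDM and PIM, Fabp4 in GAS, Acta1 in ADIPO, Spi1 in GAS, MT and ADIPO, and Cd68 in both ESC lists, MT and ADIPO. The lists held 13358 (MB) to 36322 peaks (GAS) and covered 22.3 Mb (BMDM) to 135 Mb (MT). These differences in coverage limit what a common region can be, and the lists hold no read totals. Read numbers given elsewhere in the study were not used here.

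To show what DNA the shared mark lies on, the sequence at the centre of the longest stretch that lay in all 8 lists is given for 4 of the regions with the most shared bases or with no promoter, and for the promoter regions of 3 reference genes. Windows were read from the plus strand of GRCm38 (mm10), 5′ to 3′, and capitals mark each CpG. Annotated UTR bases were left out of the windows.
Klf6, a zinc finger factor of the early response (chr13:5863626-5863853, intron): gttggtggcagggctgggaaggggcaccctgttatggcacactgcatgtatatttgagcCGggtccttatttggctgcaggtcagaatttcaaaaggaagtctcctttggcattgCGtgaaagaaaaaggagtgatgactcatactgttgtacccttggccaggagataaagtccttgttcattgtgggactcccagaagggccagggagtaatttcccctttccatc
Lmna, the gene of lamin A and C (chr3:88510996-88511295, intergenic, upstream of the nearest start): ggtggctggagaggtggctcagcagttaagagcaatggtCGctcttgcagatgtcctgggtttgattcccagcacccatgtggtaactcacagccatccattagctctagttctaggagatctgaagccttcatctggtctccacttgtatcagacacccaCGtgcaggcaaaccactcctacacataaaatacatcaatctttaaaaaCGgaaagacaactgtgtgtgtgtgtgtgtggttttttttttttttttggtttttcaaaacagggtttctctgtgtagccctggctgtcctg
Gapdh, a glycolytic enzyme (chr6:125166838-125167137, intergenic, upstream): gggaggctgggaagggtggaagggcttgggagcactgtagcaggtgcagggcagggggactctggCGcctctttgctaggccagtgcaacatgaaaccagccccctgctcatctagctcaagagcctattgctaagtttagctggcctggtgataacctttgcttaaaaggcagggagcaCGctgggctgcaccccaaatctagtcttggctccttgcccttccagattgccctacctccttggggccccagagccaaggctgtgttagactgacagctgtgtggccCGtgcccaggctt
Actb, cytoplasmic beta-actin (chr5:142908467-142908766, intergenic, upstream): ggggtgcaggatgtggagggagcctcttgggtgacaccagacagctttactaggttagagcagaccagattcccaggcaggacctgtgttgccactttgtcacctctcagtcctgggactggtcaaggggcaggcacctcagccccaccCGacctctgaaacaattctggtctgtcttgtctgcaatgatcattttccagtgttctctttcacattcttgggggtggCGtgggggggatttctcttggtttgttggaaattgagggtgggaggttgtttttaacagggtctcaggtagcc
Hspa8, the constitutive HSP70 chaperone (chr9:40799827-40800126, intergenic, upstream): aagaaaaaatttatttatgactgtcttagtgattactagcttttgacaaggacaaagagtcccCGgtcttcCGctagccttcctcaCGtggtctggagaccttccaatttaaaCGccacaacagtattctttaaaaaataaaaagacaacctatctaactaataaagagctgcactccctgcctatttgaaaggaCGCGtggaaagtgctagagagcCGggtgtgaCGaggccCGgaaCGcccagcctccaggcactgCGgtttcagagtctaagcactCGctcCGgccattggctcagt
No promoter, nearest protein-coding gene Tex44 (chr1:86442100-86442399, intergenic): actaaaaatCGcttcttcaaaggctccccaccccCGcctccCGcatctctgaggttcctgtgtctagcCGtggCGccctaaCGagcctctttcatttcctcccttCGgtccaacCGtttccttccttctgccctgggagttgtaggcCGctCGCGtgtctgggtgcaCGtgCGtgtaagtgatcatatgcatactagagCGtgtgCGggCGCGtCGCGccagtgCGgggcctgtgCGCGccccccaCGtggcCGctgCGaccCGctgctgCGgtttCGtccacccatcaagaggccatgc
No promoter, nearest protein-coding gene Azin1 (chr15:38471659-38471958, intergenic): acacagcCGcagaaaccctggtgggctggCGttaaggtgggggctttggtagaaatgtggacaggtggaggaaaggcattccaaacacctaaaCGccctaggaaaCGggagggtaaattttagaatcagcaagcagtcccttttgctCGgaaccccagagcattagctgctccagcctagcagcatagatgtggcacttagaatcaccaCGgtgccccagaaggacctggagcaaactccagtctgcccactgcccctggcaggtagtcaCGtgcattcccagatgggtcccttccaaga
The Gapdh window held 3 CpG, the Actb window 2, the Klf6 window 2 in 228 bases and the Lmna window 3, and none of these lay in a CpG island. The Hspa8 window held 13 CpG and lay outside an island by the criteria used. The window near Tex44 had the most CpG of the 7, with 28, a GC content of 62.7% and a CpG ratio (observed over expected) of 0.969, and it lay in an island away from any annotated start. The centres of the Gapdh, Actb, Klf6, Lmna and Hspa8 windows were at -521, -1863, -974, -1190 and -1007 bp from the nearest annotated transcription start site (TSS), minus being upstream.

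Over all 549 common regions with shared bases, 67.2% of the centres of the longest stretch lay in a promoter, defined as 2000 bp on either side of a TSS, but only 25.0% lay inside a CpG island. A window of 300 bases there held a median of 9 CpG and had a GC content of 54.3%. Of the 1277 regions called in 7 lists, 854 had a stretch shared by their 7 lists. The comparable windows, centred on the longest such stretch, held 12 CpG at 55.3% GC, with 74.7% of centres in a promoter and 34.8% in an island. Windows at the centre of the whole region held 4 CpG at 49.3% GC in common regions and 3 CpG at 46.3% GC in regions called in 1 to 7 lists. Common regions were wider, with a median of 16706 bp against 2837 bp, so these centres are defined alike but are not fully comparable.

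The letters of 10 short motifs were counted on both strands of these windows, and a match is only the presence of the letters. Shares are given for common windows, for the stretch windows of 7-list regions and for windows at the centre of 1-to-7-list regions. The SP/KLF box GGGCGGG was found in 23.7% (95% Wilson interval 20.3 to 27.4%), 24.6% and 4.12%. The ETS box CCGGAAG was found in 7.10%, 9.02% and 2.14%, the YY1 box ATGGCGG in 4.74%, 4.22% and 1.13%, and the CRE box TGACGTC in 3.28%, 4.22% and 0.914%. The E-box CACGTG was in 8.93%, 8.78% and 4.23%, and the inverted CCAAT box ATTGGCT in 5.83%, 7.26% and 3.82%. The AP-1 site TGANTCA was in 17.9% (14.9 to 21.3%), 15.0% and 12.2%. The NRF1 motif GCGCATG was in 1.64% (0.865 to 3.09%), 4.68% (3.46 to 6.32%) and 1.19% of windows. Of the stretch windows, 137 of 549 in common and 297 of 854 in 7-list regions lay inside an island, and in common windows this motif was in 5.11% inside and 0.485% outside islands. The TATA box TATAAA was in 11.1%, 8.55% and 17.3%, and the GATA motif AGATAA in 6.74%, 6.56% and 14.7%. In common windows outside islands the AP-1 site was present in 22.6%, against 3.65% of the 137 windows inside an island, whereas the SP/KLF box was present in 17.2% and 43.1%. At the centre of the whole region, common and 1-to-7-list regions held the SP/KLF box in 8.54% and 4.12%. They held the ETS box there in 2.72% and 2.14%. The AP-1 site, in 8.42% and 12.2% there, had the lower share in common regions, as did the TATA box (10.52% and 17.3%) and the GATA motif (12.6% and 14.7%). The E-box was in 4.83% and 4.23%, the inverted CCAAT box in 3.96% and 3.82%, the YY1 box in 1.61% and 1.13%, the CRE box in 1.98% and 0.914% and the NRF1 motif in 2.10% and 1.19%. Windows at stretch centres and at region centres differ in GC content, and common regions are wider. The part of GC content, islands and region width in these shares was not tested.

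The common regions spanned 16.5 Mb or 0.668% of chromosomes 1 to 19 and were wide, from 479 to 95838 bp with a median of 16706 bp. Because merging chains neighbouring peaks, a region that every list touches need not hold a base that every list covers. Such shared bases were present in 549 of the 808 regions (67.9%), in 725 stretches with a median of 988 bp (range 4 to 6573 bp) that added up to 834 kb, or 5.07% of the bases of the common regions. The 259 regions without shared bases were wider (median 21269 bp) than those with them (13990 bp). The width follows from the rule, since a wide region has more chances to meet a peak of each list, and it rose over every step from 2001 bp for regions called in 1 list to 10718 bp for those called in 7.

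**Figure D1:**
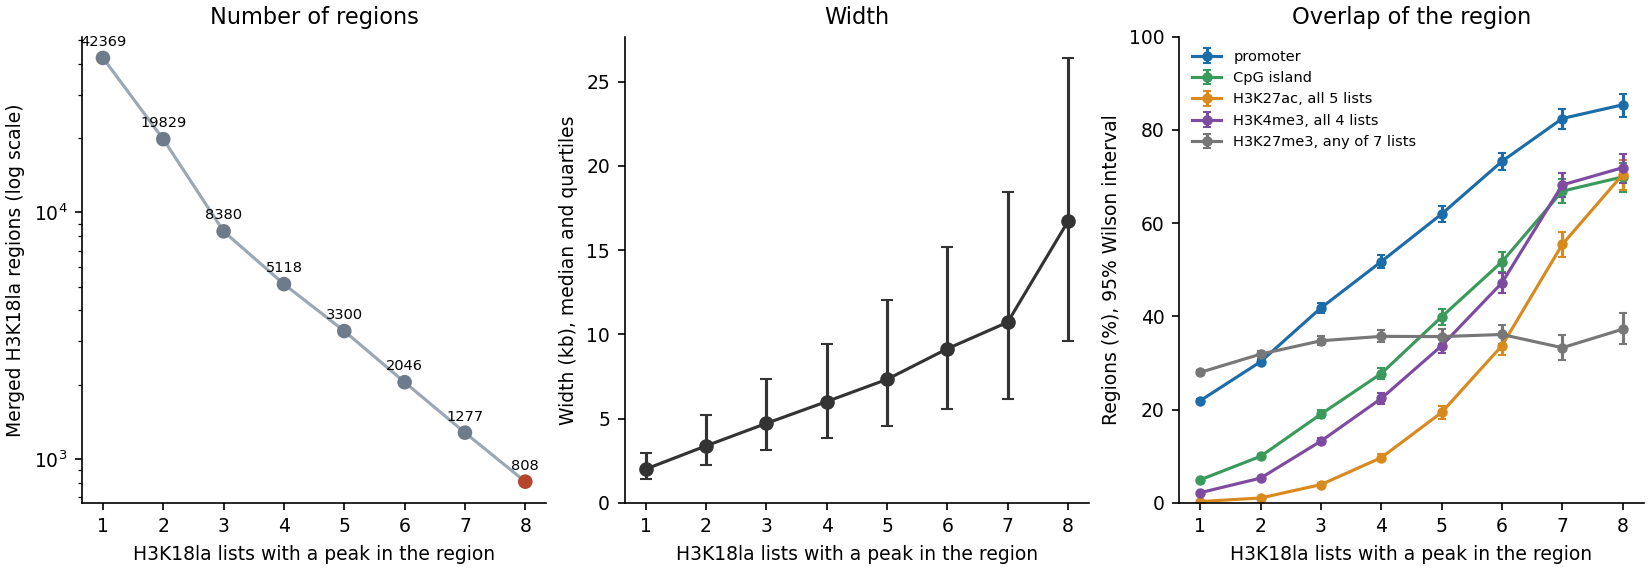
Merged H3K18la regions by the number of lists with a peak in them (x axis, 1 to 8): number of regions on a log scale, median width in kb with quartile bars, and the share of regions (%, bars are 95% Wilson intervals) that overlap a promoter, a CpG island or peaks of the other marks. In the left panel the 808 common regions are the red point at 8 lists. Width and the promoter, island, H3K27ac and H3K4me3 shares rise with the number of lists, while the H3K27me3 share stays between 28.0% and 37.3%.

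Among the common regions, 690 (85.4%, 95% Wilson interval 82.8 to 87.7%) overlapped a promoter, beside 32.2% of all merged regions and 82.5% of regions called in 7 lists. A CpG island was present in 565 regions (69.9%, 66.7 to 73.0%), beside 13.1% of all merged regions and 66.9% of regions called in 7 lists. These intervals cover counting error only, since regions are not replicates of a condition. Both shares depended on the width. The central base of the region lay in a promoter in 45.7% and in an island in 10.4% of common regions, less than the 54.3% and 13.9% of regions called in 7 lists, and 69.8% of the shared stretches overlapped a promoter and 46.1% an island. Of all shared bases, 63.2% lay in promoters and 18.2% in islands, which take up 11.1% and 0.452% of the chromosomes.

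A promoter of a protein-coding gene was present in 611 common regions, and 181 (22.4%) held promoters of 2 or more such genes, up to 9. Another 79 regions held promoters of noncoding genes only, and 118 held none. A CpG-island promoter was present in 536 regions (66.3%). The 118 regions without a promoter had a median width of 14913 bp, 43 of them lay over a protein-coding gene body, and the median distance to the nearest protein-coding TSS was 21795 bp (farthest 246269 bp). Only 19 of the 118 (16.1%) held a CpG island. Common regions were found on all 19 chromosomes, from 1.84 per 10 Mb on chromosome 14 to 6.80 on chromosome 11. Per 100 protein-coding genes the range was smaller, from 2.23 on chromosome 9 to 5.91 on chromosome 12.

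The lists contributed unequally to the same regions. A common region held a median of 10229 bp of H3K18la peak in ESC-2i, 8402 bp in MT, 8313 bp in GAS, 7233 bp in ESC-ser, 6024 bp in PIM, 4706 bp in ADIPO, 3777 bp in MB and 2170 bp in BMDM. The region held a single peak of the list in 269 cases for PIM, 352 for GAS, 366 for ADIPO, 367 for BMDM, 442 for MT, 457 for ESC-ser, 534 for MB and 622 for ESC-2i, and up to 19 BMDM peaks lay in a region. BMDM held the fewest bases in 454 of the 808 regions (56.2%), MB in 137 and ADIPO in 116. Peaks in common regions were wider than the other peaks of their list in all 8 lists, with medians of 2730 against 2387 bp in MB and 7158 against 4524 bp in ESC-2i, which is again what the rule selects.

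**Figure D2:**
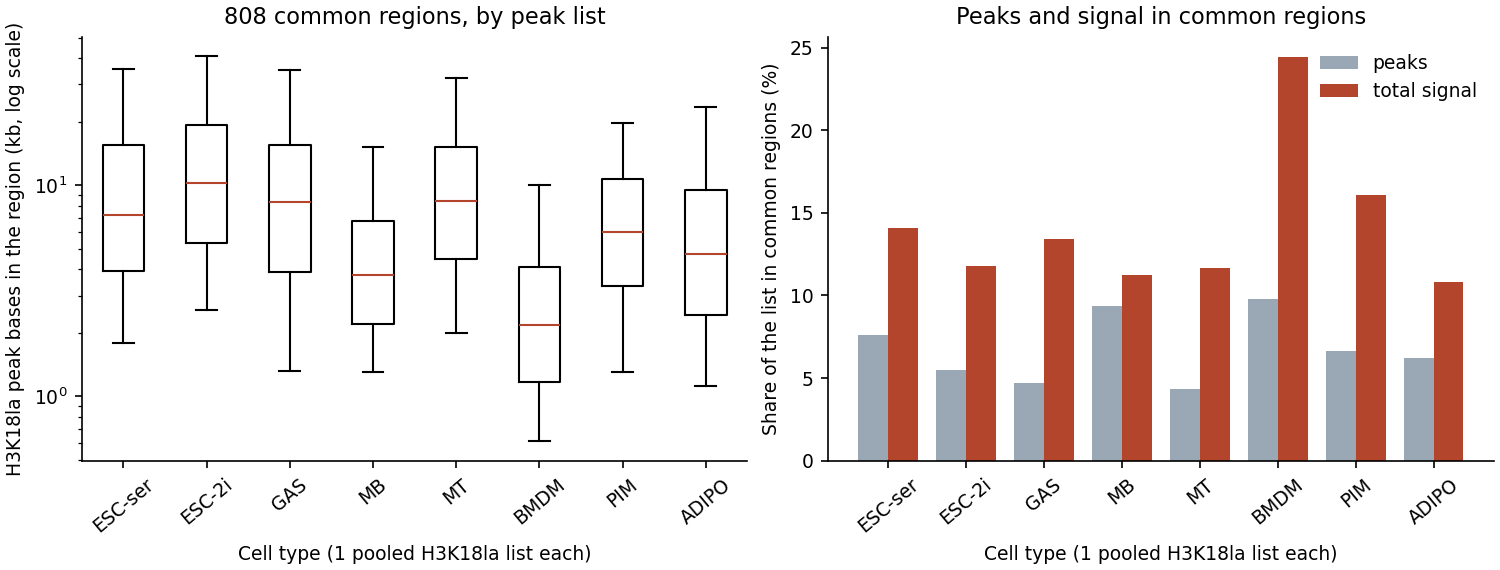
Left, bases of H3K18la peak (kb, log scale) in each of the 808 common regions by list, as boxes of the quartiles with the median in red and whiskers at the 5th and 95th percentiles. Right, the share (%) of each list's peaks and of its total signal that lay in common regions; BMDM has the smallest boxes (median 2170 bp) and the highest share of signal (24.4%).

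Between 4.33% (MT) and 9.76% (BMDM) of the peaks of a list lay in common regions, and these peaks held 10.8% (ADIPO) to 24.4% (BMDM) of the list's total signal, the coverage summed over the bases of a peak. The share of signal was above the share of peaks in all 8 lists. The tallest peak of a common region stood at the 86.5th to 87.5th percentile of peak heights in GAS, MT and PIM (medians over regions) but at the 54.6th percentile in MB. A region can hold several peaks, and over single peaks in common regions the median percentiles were lower, 68.8 in GAS, 73.2 in MT, 68.6 in PIM and 49.7 in MB.

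The distance between the positions of highest coverage, the summits, varied between pairs of lists. In ESC-ser and ESC-2i the summits of a common region were a median of 82 bp apart, in MB and MT 149 bp, and in BMDM and PIM 251 bp. The medians of the other 25 pairs of lists ran from 508 bp (MT and PIM) to 2344 bp (ESC-2i and MB). GAS was farther from MT (919 bp) and MB (1362 bp), the other muscle lists, than MT and MB were from PIM (508 and 620 bp). All 8 summits fell within 1000 bp of each other in 110 regions (13.6%), and the median distance between the outermost summits was 7597 bp. The summit lay within 2000 bp of a TSS in 51.7% (MB and MT) to 60.8% (ADIPO) of the regions, against 17.5% (MB) to 37.7% (ADIPO) of the peaks outside common regions. It lay inside a CpG island in 14.2% (MB) to 25.7% (ADIPO), against 1.70% (MB) to 14.2% (ADIPO) of the other peaks. In 240 regions all 8 summits lay within 2000 bp of a TSS, and in 181 none did.

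The 10 regions with the most bases in all 8 lists were led by the locus of Malat1 and Neat1, abundant nuclear noncoding RNAs, at chr19:5791356-5854026. It was 62671 bp wide and held 15672 bp in all 8 lists, in 10 stretches, the longest of 6022 bp. The peaks there covered 20572 bp in BMDM and 26359 bp in MB, then 39488 bp in PIM, 47241 bp in ADIPO, 51581 bp in ESC-ser, 54003 bp in ESC-2i, 54865 bp in GAS and 59662 bp in MT. Counted along the Malat1 strand from its start, 8 stretches lay between -15.8 and -0.338 kb and another between -39.9 and -38.6 kb, inside Neat1. The longest ran from -48.3 to -42.2 kb, across the Neat1 start at -42.8 kb. None lay in the body of Malat1. The MB peak nearest to it ended at -0.338 kb, and the ESC-ser, GAS and BMDM peaks shared no base there either. H3K27ac was present in all 5 lists, H3K4me3 in all 4 and H3K27me3 in none.

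**Figure D3:**
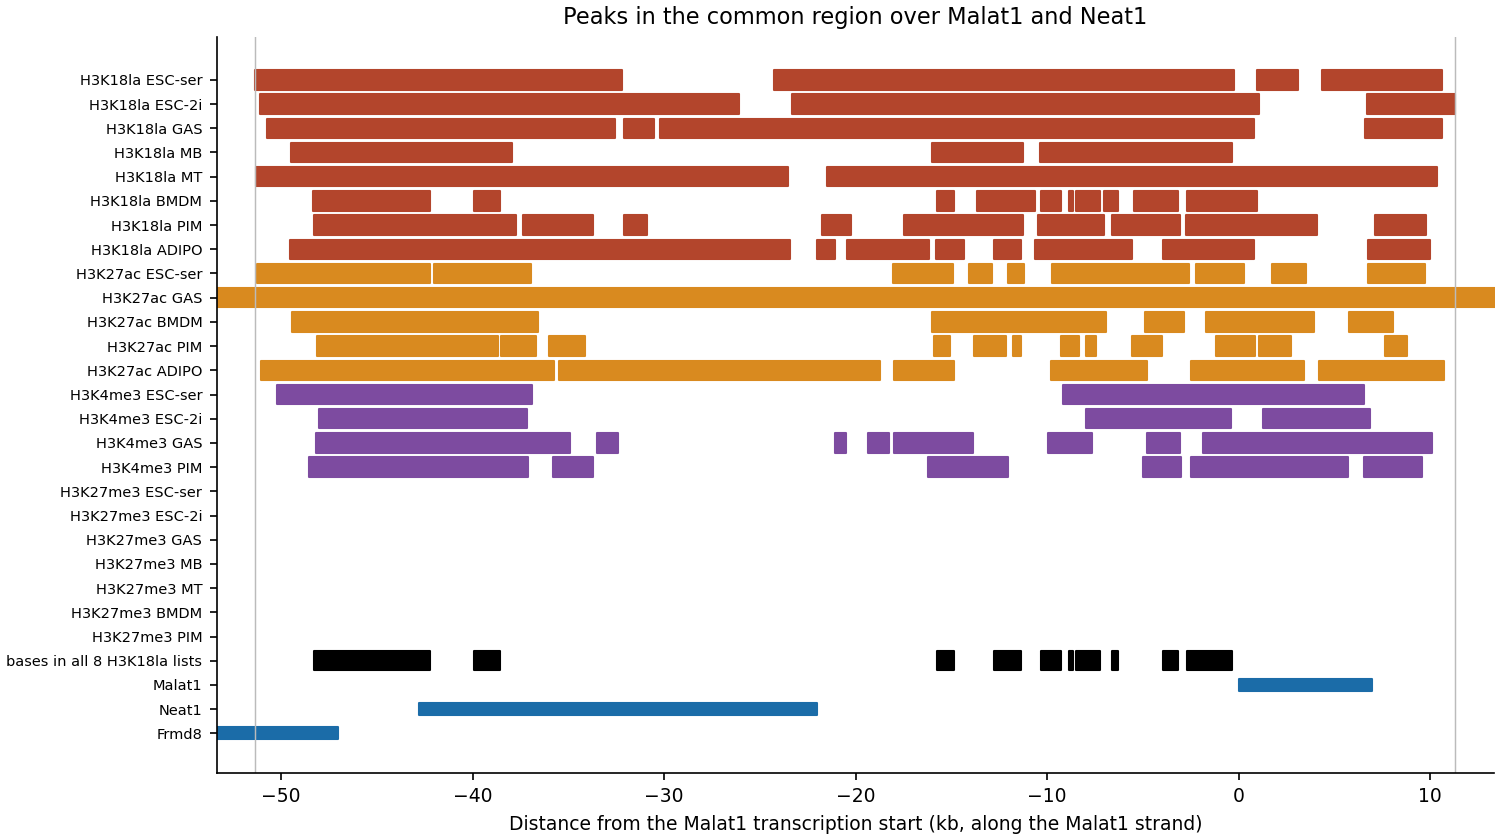
Peaks of all 24 lists in the common region over Malat1 and Neat1, by distance in kb from the Malat1 transcription start along its strand; grey lines mark the ends of the region, black bars the bases in all 8 H3K18la lists and blue bars the genes. The shared bases lie upstream of Malat1 and around the start of Neat1, and the H3K27me3 rows are empty; the single GAS H3K27ac peak runs past both ends.

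The region over Klf6, at chr13:5856921-5877332, held 6863 shared bases and the longest single stretch, of 6573 bp. Here the lists were alike, with 9716 bp covered in ESC-ser, 12174 bp in ESC-2i, 12641 bp in MB, 13393 bp in GAS, 13622 bp in BMDM, 14407 bp in ADIPO, 19195 bp in MT and 19275 bp in PIM. Zc3h12a, the gene of an RNase that degrades inflammatory transcripts (chr4:125113423-125129222, 6014 shared bases), was as even, from 8927 bp in BMDM to 15117 bp in ADIPO. The other regions of the 10 varied more. Lmna (chr3:88477112-88522798, 8330 shared bases) was covered over 14403 bp in ADIPO and 38828 bp in ESC-ser, and Irf2bpl (chr12:86849522-86928726, 6052 shared bases), a gene of a transcriptional cofactor, over 8399 bp in BMDM and 74090 bp in ESC-2i. Irf2bp2, of the same family (chr8:126561086-126629743, 6271 shared bases), was covered over 17479 bp in ESC-ser and 59584 bp in GAS. The region over part of Vmp1, a gene of autophagy, and the Mir21a gene (chr11:86565596-86609294, 8450 shared bases) was covered over 11918 bp in ESC-2i and 42019 bp in MT.

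The remaining 3 of the 10 held promoters of noncoding or unnamed genes only. They were chr2:167751082-167812611 with 9230111E07Rik and Gm14321 (10678 shared bases), chr12:86785424-86843971 with Gm25888 (9286) and chr8:126817521-126889324 with A630001O12Rik and Gm31718 (9153). The first and last were covered least in ESC-ser, over 12876 and 18344 bp, and most in MT, over 58886 and 71728 bp. All 10 regions had H3K27ac in all 5 lists, and 8 had H3K4me3 in all 4. The exceptions were the regions with A630001O12Rik, which had H3K4me3 in 1 list (PIM), and with Vmp1, which had it in 3. The regions with 9230111E07Rik, Lmna and Irf2bp2 each had H3K27me3 in 1 of 7 lists.

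Of the regions without a promoter, the 5 with the most shared bases lay 15594 bp from the TSS of Azin1, a regulator of polyamine synthesis (2651 shared bases), 13664 bp from that of Nfkbia, the inhibitor of NF-kappaB (2490), 3381 bp from that of Tex44 (2391), 34333 bp from that of Zfp825 (2339) and 29964 bp from that of Ccr1, a chemokine receptor (2044). All but the last had H3K27ac in all 5 lists, and that one had it in 4. The region near Zfp825 was 93.8% soft-masked as repeats and had H3K27me3 in all 7 lists. The region near Ccr1 was covered over 15618 bp in PIM and 11870 bp in BMDM, against 2044 to 5639 bp in the other 6 lists.

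At the other end, the fewest shared bases above 0 were 4 bp at Kansl2, 34 bp at Pqlc3, 34 bp at a noncoding locus near Sirt4, 38 bp at Fam210a and Rnmt, and 46 bp at Fnbp1. The narrowest hold on membership in any list was 217 bp of BMDM peak in a region of 23924 bp on chromosome 2. In 124 regions the list with the fewest bases covered under 5% of the region. Just outside the rule stood 1277 regions called in 7 lists. The missing list was MB in 684 of them, BMDM in 238, ADIPO in 151, ESC-ser in 79, ESC-2i in 68, GAS in 37, PIM in 16 and MT in 4. The missing list had its nearest peak at a median of 41063 bp, and within 1000 bp in 16 regions. Without the MB list the rule gave 1494 regions, and without any other list 788 to 1046.

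Among the common regions, 13 (1.61%) had H3K27me3 in all 7 lists as well, beside 1 of the 1277 regions called in 7 lists and 0.712% of regions called in 1 to 7 lists, and 5 of the 13 were called in all 24 lists of the series. These 13 were short (median 1134 bp against 16706 bp for all) and 9 of them were at least 50% soft-masked, the mark of repeats in the genome file (median 58.8% against 21.6% in the other common regions). They included chr2:98666237-98667339 over Gm10800, chr9:3000001-3038345 over Gm10722 and other predicted genes, chr14:19415585-19419703 over Gm21738, chr13:74528325-74531384 and chr17:39842518-39848904 over Gm42418 and AY036118. The first was the tallest common region in every H3K18la list, with a maximum of 2800 in MB, 4850 in ESC-ser and 219876 in BMDM, where the median maximum of peaks in common regions was 138, 79 and 185. The 13 regions held 11.3% of the total signal of the BMDM list and 0.230% of that of MB. Without them, common regions held 8.97% (ADIPO) to 13.7% (ESC-ser) of the total signal, and BMDM (13.2%) no longer stood apart. The part of repeats in the calls, and whether a blacklist would remove these regions, was not tested.

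H3K27ac was present in all 5 lists in 569 common regions (70.4%, 67.2 to 73.5%), beside 4.52% of all merged regions and 55.4% of regions called in 7 lists, and no common region lacked it in all lists. H3K4me3 was present in all 4 lists in 581 (71.9%, 68.7 to 74.9%), beside 9.34% of all merged regions and 68.2% of regions called in 7 lists, and 11 common regions lacked it. Both held in 492 regions (60.9%), beside 51.1% of regions called in 7 lists and 3.54% of those called in 1 to 7. H3K27me3 was present in at least 1 of 7 lists in 301 regions (37.3%, 34.0 to 40.6%), beside 30.8% of all merged regions and 33.3% of regions called in 7 lists, and most of these had it in 1 (132) or 2 lists (85). In regions with a promoter H3K27ac was present in all 5 lists in 76.2% and H3K4me3 in all 4 in 80.0%, against 36.4% and 24.6% of the 118 regions without one. Wide regions meet more peaks of any mark, so these shares were not tested.

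To compare the marks without this effect of width, the central base of each H3K18la peak was looked up in the other mark's list of the same cell type. H3K27ac was present at 45.9% of the peaks in common regions and 33.8% of the other peaks in ESC-ser, 72.3% and 57.4% in GAS, 74.9% and 47.7% in BMDM, 49.5% and 33.0% in PIM, and 72.9% and 57.4% in ADIPO. The share was higher in common regions in 5 of 5 cell types, by 17.2 ± 5.81 percentage points (SD, n = 5 cell types; two-sided exact permutation test by sign flips, p = 0.0625, the smallest 5 cell types allow, Benjamini-Hochberg adjusted p = 0.188 over 3 tests). BMDM had the largest difference, 27.2 points, and ESC-ser the smallest, 12.1 points.

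H3K4me3 was present at 40.6% of common and 27.5% of other peaks in ESC-ser, 41.5% and 29.1% in ESC-2i, 43.2% and 23.1% in GAS, and 65.6% and 47.2% in PIM. It was higher in common regions in 4 of 4 cell types, by 16.0 ± 3.84 points (SD, n = 4; exact sign-flip permutation test, p = 0.125, the smallest 4 cell types allow, adjusted p = 0.188). Neither design can pass a threshold of 0.05.

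H3K27me3 was present at 1.24% (MT) to 9.97% (ESC-ser) of common peaks and 0.0908% (MB) to 10.6% (ESC-ser) of other peaks. It was higher in common regions in 4 of 7 cell types (ESC-2i, MB, BMDM and PIM) and lower in 3, by 0.49 ± 1.29 points (SD, n = 7; exact sign-flip permutation test, p = 0.391, adjusted p = 0.391). Without the 13 regions with H3K27me3 in all 7 lists, the mean difference was -0.52 points (p = 0.234 in the same exact test). This alternative was chosen after seeing the data and left out common peaks only, by the mark compared. The other peaks with the mark all stayed in, so a lower difference was built in. Nothing is therefore read from the change of sign or from this p-value.

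These differences changed with what the common peaks were compared with. Among peaks over a CpG-island promoter, H3K27ac was present at a mean of 78.0% of common and 72.7% of other peaks, a difference of 5.32 ± 2.40 points that was positive in 5 of 5 cell types. H3K4me3 there was lower in common regions in 4 of 4 cell types (75.8% against 79.5%, a difference of -3.63 ± 3.50 points, exact p = 0.125). H3K27me3 there differed by a mean of -2.40 ± 2.75 points (lower in 6 of 7 cell types, all but MB, exact p = 0.0312 unadjusted), with the largest gap in ESC-ser, where 12.3% of common and 20.3% of other peaks had it. Among peaks over no promoter all 3 marks were more frequent in common regions, H3K27ac by 14.1 points (5 of 5 cell types), H3K4me3 by 7.88 points (4 of 4) and H3K27me3 by 1.64 points (7 of 7, exact p = 0.0156 unadjusted). An alternative chosen after seeing the data left out the peaks of the 13 regions with H3K27me3 in all 7 lists. The H3K27me3 difference over no promoter was then 0.30 ± 1.53 points, higher in 3 of 7 cell types (exact p = 0.656 unadjusted). Those were ESC-2i (3.01 points), PIM (1.64) and BMDM (0.38), and it was lower in the others. Only common peaks were left out, and by the mark compared, so a lower difference was built in. Against peaks in regions called in 5 to 7 lists, H3K27ac was 4.32 ± 4.29 points higher (5 of 5) and H3K4me3 differed by a mean of -0.83 ± 3.58 points (higher in 2 of 4). H3K27me3 differed by 0.86 ± 1.11 points there (higher in 5 of 7, exact p = 0.0781 unadjusted).

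**Figure D4:**
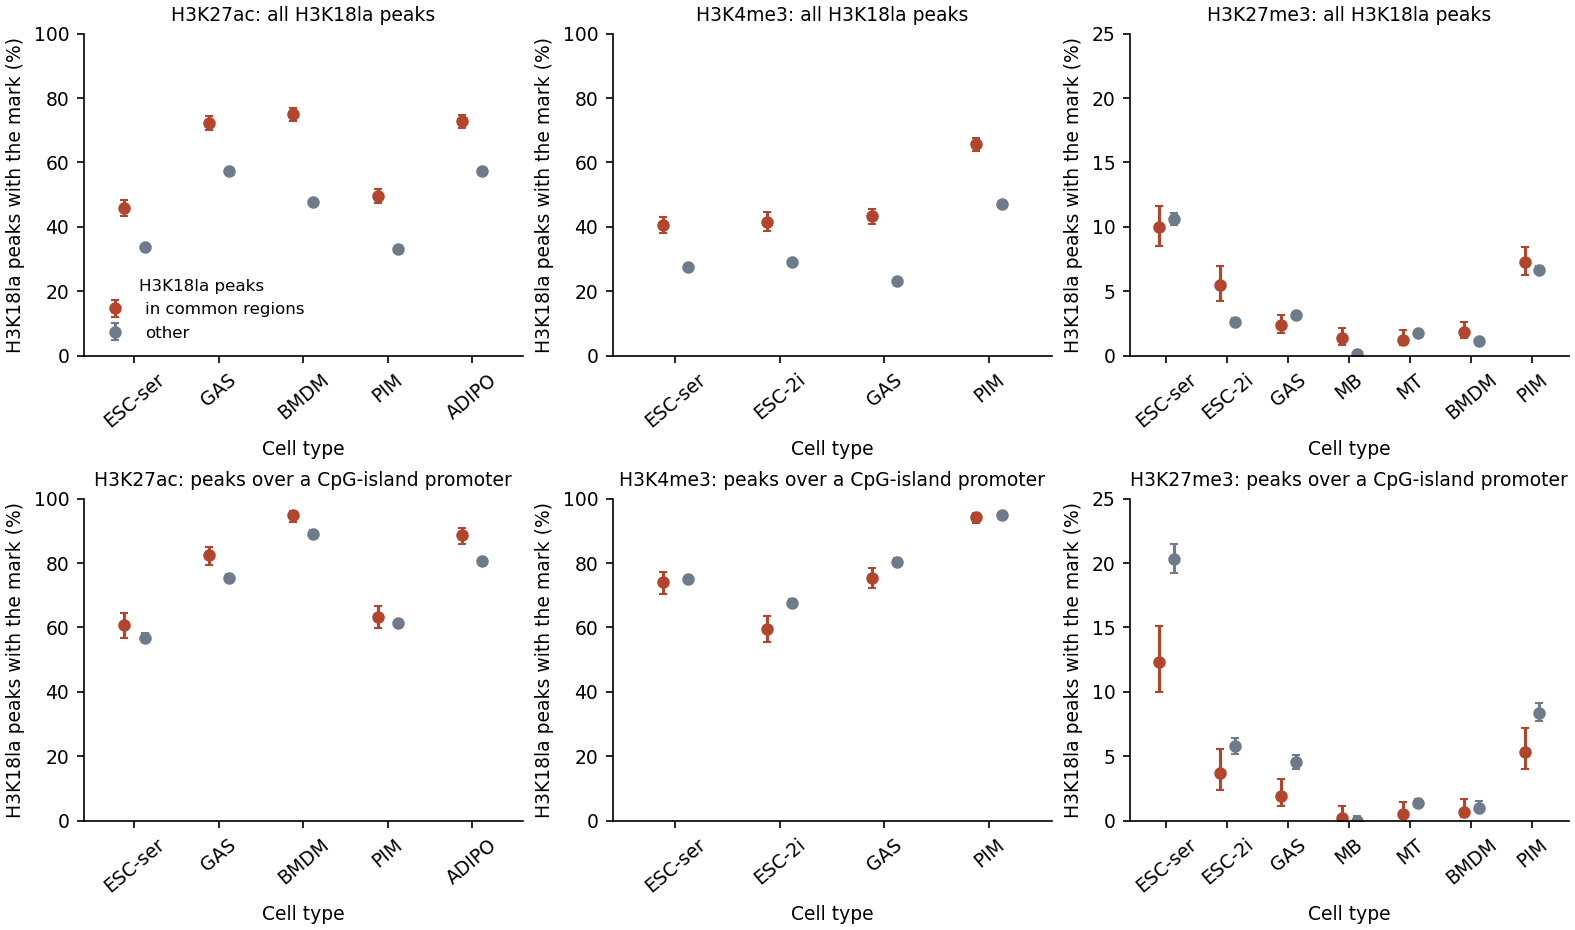
Share of H3K18la peaks (%) whose central base lay in a peak of H3K27ac, H3K4me3 or H3K27me3 of the same cell type, for peaks in common regions (red) and other peaks (grey), with 95% Wilson intervals; top, all peaks; bottom, peaks over a CpG-island promoter. In the top row the red points lie above the grey for H3K27ac and H3K4me3 in every cell type, and in the bottom row H3K4me3 is lower in common regions in all 4; the H3K27me3 axis ends at 25%.

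Over single genes, 872 of 20807 protein-coding genes (4.19%) had a promoter in a common region. The share was 8.02% with the MB list left out of the rule and 2.02% with only the bases present in all 8 lists. Counted at the promoter itself, 582 genes (2.8%) had an H3K18la peak in all 8 lists, 1108 in 7 and 6046 in none. Both conditions held for 510 genes, or 58.5% of the 872 and 87.6% of the 582. The difference arose because a wide region can reach a promoter that some lists leave out, and because peaks at 1 promoter can fall into separate regions. Of the 582 genes, 529 (90.9%) had a CpG-island promoter, against 61.4% of all protein-coding genes. The lists of genes below were counted in full, with no test, since the common regions were chosen on the same peaks.

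Immediate early and stress response genes, whose transcripts rise within minutes of a stimulus, had the highest share, with 21 of 30 in a common region and 16 in all 8 lists. The most shared bases were in the regions of Klf6 (6863), Zfp36, an RNA-binding protein that destabilises cytokine transcripts (5654), Mcl1, an inhibitor of apoptosis (4766), and Junb, a subunit of AP-1 (3792). Mcl1 had the mark at its own promoter in 7 lists, all but MB. At the low end, Ier5 had H3K18la at its promoter in 3 lists and Egr2 in 4. Ier5 is nonetheless among the 21, since a common region reached its promoter, and Egr2 is not. H3K27me3 overlapped 13 of the 30 promoters in at least 1 list, beside 46.1% of all protein-coding genes.

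Cytoskeletal genes followed, with 14 of 26 in a common region. Actb (4273 shared bases), Actg1, the second cytoplasmic actin (3400), Vim, an intermediate filament protein (2513), and Tpm4, a tropomyosin (1521), had the mark in all 8 lists. The tubulin genes Tuba1b, which is among the 14, and Tubb5, which is not, had it at the promoter in 4. Of the genes of glycolysis and lactate handling, 11 of 22 lay in a common region. Gapdh (2163 shared bases), Pkm, the pyruvate kinase that ends glycolysis (2049), and Aldoa, an aldolase (1787), were among 7 genes marked in all 8 lists, and Aldoc and Pfkm were marked in 2. Ldha, which makes lactate from pyruvate, and Slc16a3, a lactate exporter, were both marked in 7 lists, all but MB; these 2 genes were picked after their values were seen. Of the respiratory chain genes 3 of 59 (5.08%, beside 4.19% of all protein-coding genes) were in a common region, namely Atp5d, Ndufb9 and Ndufs8.

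Nuclear and snoRNA-host noncoding RNAs had 5 of 11 in a common region, namely Malat1, Neat1, Gas5, Snhg1 and Snhg8. Of the core clock genes 5 of 15 did. Nr1d1 (5371 shared bases), Per1 (4986), Bhlhe40 (2364) and Bhlhe41 (724) had the mark in all 8 lists, Dbp in 7, and Clock in none. Of the housekeeping genes used as references 4 of 13 were in common regions, Actb and Gapdh among them, and Rplp0 had no H3K18la at its promoter in any list. Of the chaperone genes 6 of 25 were in common regions, with Hspa8 (2003 shared bases), Hsp90ab1 (933) and Hspa9 (640) marked in all 8 lists.

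Ribosomal protein genes had 10 of 75 in a common region and 6 in all 8 lists, and 73 of 75 were marked in ESC-2i, 72 in ESC-ser, 69 in ADIPO, 42 in PIM, 40 in MT, 35 in GAS, 27 in BMDM and 6 in MB. Over all protein-coding genes the shares in the same order were 38.8%, 34.4%, 45.6%, 38.6%, 35.8%, 37.0%, 18.99% and 11.5%, so MB and BMDM were low for all genes. Translation factors (2 of 26, Eef1g and Eif3b), proteasome subunits (2 of 31) and splicing factors (4 of 35, Hnrnpl, Hnrnpu, Ptbp1 and U2af2) had 3, 1 and 4 genes marked in MB. RNA polymerase II and bromodomain genes had 5 of 25 in common regions, Cdk9, Cdk7 and Brd2 in all 8 lists, and cell cycle genes 4 of 23 (Ccnd3, Cdk4, Cdkn1a and Pcna). Among the genes of chromatin enzymes, Kdm6b, an H3K27 demethylase (5214 shared bases), was the 1 of 23 Polycomb and H3K27 demethylase genes in a common region (4.35%, beside 4.19% of all protein-coding genes). Setd1b and Wdr5 were the 2 of 12 of the H3K4 methyltransferase complexes, none of which was marked at the promoter in more than 6 lists. Kat2b and Hdac5 were the 2 of 23 writers and erasers of histone acylation. Ep300, a proposed lactyl writer picked after its value was seen, was marked in 3 lists.

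No gene of the identity lists was in a common region: 0 of 10 for stem cells, 0 of 14 for muscle, 0 of 12 for macrophages, 0 of 10 for adipocytes and 0 of 14 for neurons. With 4.19% of all protein-coding genes in common regions, lists this short would hold few or none at that share, so nothing about these genes is read from the zeros. The promoters of the stem cell genes were marked in 10 of 10 cases in both ESC lists, those of the adipocyte genes in 10 of 10 in ADIPO and those of the macrophage genes in 12 of 12 in BMDM and PIM. Muscle genes were marked in 13 of 14 cases in MT, 12 in GAS and 6 in MB, and neuronal genes, whose cells were not profiled, in at most 4 of 14 in any list. Some were nonetheless broad, with Cd68, Tlr4 and Pnpla2 at 6 lists. All 39 Hox genes had H3K27me3 in at least 1 list.

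**Figure D5:**
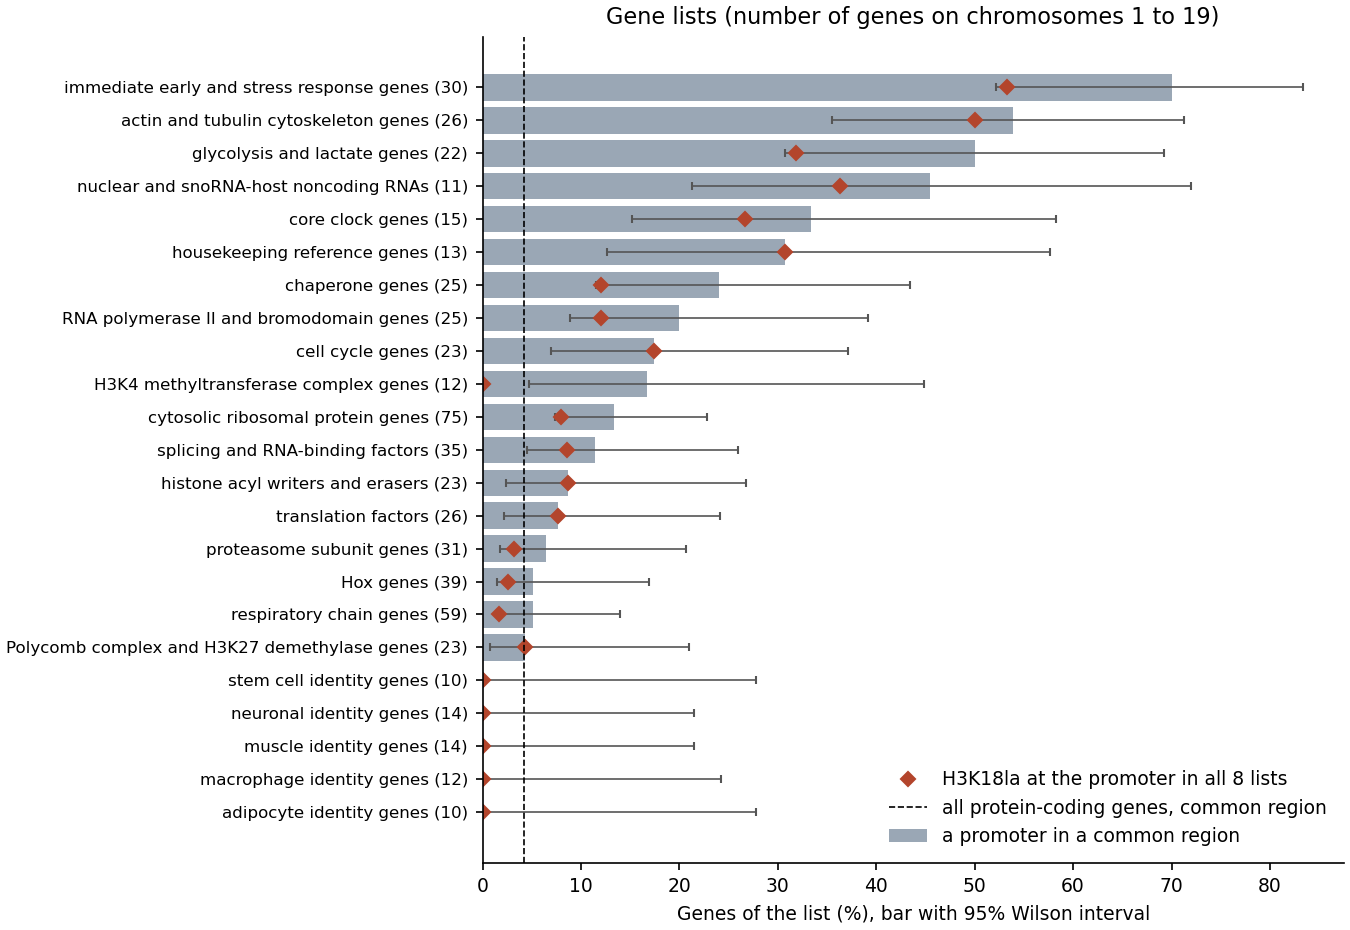
Share (%) of each gene list with a promoter in a common region (grey bars, lines are 95% Wilson intervals) and with H3K18la at the promoter in all 8 lists (red diamonds); the dashed line is the share of all protein-coding genes in a common region (4.19%) and the number of genes is in brackets. Immediate early genes (21 of 30), cytoskeletal genes (14 of 26) and glycolysis genes (11 of 22) are highest, and the 5 identity lists are at 0.

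When every list was reduced by total signal to the 22.3 Mb of the smallest one, 28 regions were left. They included those of Malat1 and Neat1, Klf9, Dusp1, Nr1d1, Zfp36, Mcl1, Kdm6b, Sqstm1, Ahnak with Eef1g, and the region near Tex44, and 4 of the 28 lay in regions with H3K27me3 in all 7 lists. With the 5000 peaks of largest total signal in each list, 67 regions were left.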

How the data were processed

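CUT&Tag was done on 41 samples. Per the labels and the study's methods, the authors checked and trimmed reads (FastQC, Trim Galore 0.6.6), aligned them to mm10 with Bowtie2 2.4.4, handled them with SAMtools 1.13, pooled replicates as coverage with bedtools 2.30 and called peaks with SEACR 1.3 (stringent, top 1% of signal, no control). The 24 deposited peak lists give each peak's position and its total and maximum signal, which is unscaled coverage, so heights were compared only within a list. The lists hold no read totals, and read numbers of the study were not used here. A peak set by a top share follows the list's own background. The methods describe a filter on blacklisted regions after peak calling, and whether the deposited lists had passed it was not tested. No per-sample column was left unused (0).

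Lists were merged on chromosomes 1 to 19 where peaks overlapped by 1 bp or more (Python 3.11.15, pandas 2.3.3, numpy 2.4.6), and intervals were checked with bedtools 2.31.1. Promoters were 2000 bp on either side of each of 134417 GENCODE transcript starts on GRCm38 (the same build). CpG islands were called from the sequence (at least 200 bp, 50% GC, CpG observed over expected at least 0.6), giving 16493. Marks were compared over cell types with a two-sided exact permutation test by sign flips, adjusted over 3 tests (Benjamini-Hochberg). Shares carry 95% Wilson intervals. The interval and test code was tested on simulated data.

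The members, gene lists and comparisons were chosen with earlier results of these data known. Named regions were the 10 with the most bases in all 8 lists, the 5 without a promoter with the most, the 5 with the fewest above 0 and the 5 with H3K27me3 in the most lists. Named genes were the members of each list with the most shared bases or the most and fewest lists, with exceptions stated. Alternatives changed the merging, the lists, the promoters, the overlap, the compared peaks and the cell types. Some results are not reported here.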

Additional observations from a re-analysis of the deposited data

Results flagged for a closer look

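The 17 quantities looked at were compared over the 8 lists or, for the other marks, over the 4 to 7 cell types measured. Of these quantities, 3 had 1 list far from the other 7, where chance alone puts about 1 in 20 such groups past the limit used. BMDM held 24.4% of its total signal in common regions, against 10.8% to 16.1% in the other lists, and 13.2% without the 13 regions with H3K27me3 in all 7 lists. In MB the tallest peak of a common region stood at a median percentile of 54.6 of the list's peak heights, against 73.0 to 87.5 elsewhere. MB was also the only missing list in 684 of the 1277 regions called in 7 lists, against 4 to 238 for the others. All 3 values come from the H3K18la lists that the rule used, and the last is a count that the rule itself makes, so they are descriptions and no test. MB and BMDM each rest on 1 H3K18la sample, and the part of this in their values was not tested.

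Chromosome X, which the rule left out, held 5 regions with a peak in every list, of 1694 merged regions there (0.295%).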

How the results depend on the processing

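Regions were counted with all 8 pooled lists, so limits of single samples could not be measured, and regions without a base in all 8 lists depend on the merging. With only the bases in all 8 lists, 69.8% of stretches were at promoters, 46.1% had a CpG island, 2.02% of genes were reached and H3K27me3 was 2.17 points higher at common peaks (exact p = 0.0156). Joining peaks within 1000 bp reached 4.95% of genes. Lists reduced to equal bases left 28 regions, 92.9% at promoters, 0.187% of genes and an H3K27me3 difference of 11.8 points (exact p = 0.0156), and the 5000 largest peaks per list left 67 regions, 88.1%, 0.370% and 6.95 points (exact p = 0.0156). Of these 28 and 67 regions, 4 and 7 lay in the 13 regions with H3K27me3 in all 7 lists. Promoters of protein-coding transcripts alone gave 71.9%, and the central base gave 45.7% for promoters and 10.4% for islands. Among peaks over a CpG-island promoter the differences turned to -3.63 points for H3K4me3 and -2.40 for H3K27me3, and over no promoter H3K27me3 differed by 1.64 points. Against regions called in 5 to 7 lists H3K4me3 turned to -0.83 points. Without the 13 regions, an alternative chosen after seeing the data, H3K27me3 differed by -0.52 points, and over no promoter by 0.30 points. It left out common peaks only, by the mark compared, so lower differences were built in. The causes were not tested.

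Leaving out 1 list or cell type at a time gave 788 to 1494 regions, 82.0% to 86.1% at promoters, 63.5% to 73.8% with an island and 3.84% to 8.02% of genes, the highest counts of regions and genes being without MB. The differences ran from 14.7 to 20.8 points for H3K27ac, 13.2 to 23.8 for H3K4me3 and 0.106 to 0.830 for H3K27me3. H3K27ac was higher at common peaks under all 24 alternatives run. No paired analysis was possible because replicates were pooled into 1 list per cell type and mark, which concerns the pairing of replicate samples, while the sign-flip tests pair common with other peaks within a cell type.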
